A study of Mus musculus with 6 samples.

Results

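The genes described here encode the protein parts of the cytosolic ribosome. They were taken by a rule on names, and the family was chosen with earlier results of these data known. All rows of the deposited gene tables whose symbol is Rpl or Rps followed by a number (with an optional letter a, l or x), Rplp0 to Rplp2, or Rpsa were taken. This gave 83 of the 50559 genes listed, 51 of the large subunit and 32 of the small subunit. The 83 lie on 19 chromosomes in the RefSeq annotation of GRCm38.p6, which lists 81 as protein coding and the copies Rpl6l and Rps4l as pseudogenes. Of the 83, 81 had enough counts to be tested. Rpl10l had no count in any library and Rpl39l had 6 counts in 1 library.

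RNA of C57 mice was sequenced in 6 libraries, 3 with the genotype label WNT3 control and 3 with the label for WNT3 overexpression. The comparison addresses how expression in the auditory cortex differs when Wnt3, which encodes a secreted Wnt ligand, is overexpressed. Every sample is labelled as auditory cortex, while the text on RNA extraction names the striatum. No vector, promoter, age, sex or treatment of the controls is given in the labels, and nothing there says that replicates came from different animals. The p-values therefore speak only of the variation among these 6 libraries, which may be technical. Total counts ranged from 42614588 to 71803617 per library. Wnt3 itself ran from 1.74 to 2.70 CPM (counts per 1000000, scaled by TMM, edgeR's trimmed-mean library factors) in the controls and stood at 98.8, 7.45 and 8.71 CPM in the 3 overexpression libraries. The groups did not overlap in Wnt3, with an adjusted p of 0.822 by edgeR, and control 2, the library that stands apart in what follows, had 1.91 CPM. The 10 cortical neuron markers were all detected, with summed levels of 1663 to 1901 CPM, and the 10 striatal markers summed to 370.2 to 602 CPM.

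A ribosome consists of a small subunit, which binds the mRNA and reads its codons, and a large subunit, which joins the amino acids and passes the chain out through a tunnel. Each subunit holds 1 copy of nearly all of its proteins on a core of ribosomal RNA, and only the acidic stalk proteins are present in more copies. The mRNAs of these proteins are short and abundant and typically begin with a run of pyrimidines, the terminal oligopyrimidine or TOP tract, through which mTOR and the RNA-binding protein Larp1 govern their translation. In brain, ribosomes and their mRNAs are also carried into dendrites and axons, where proteins are made locally.

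The start of the transcript is the sequence feature by which these genes are best known. Promoters are shown for members that begin with such a run, the 4 with the highest and the 4 with the lowest ratio of control 2 to the other controls. RefSeq promoter windows of GRCm38.p6 were at hand for 61 members, with 73 entries, each reaching from 250 bases before the annotated start to 50 bases after it. A start with C followed by an unbroken run of C or T, 5 or more letters in all, was found in 14 of the 73 member entries (19.2%) and in 2.51% of all 32851 entries. Each line gives the 60 bases before the start and the first 20 bases of the transcript, with the run at the start in capitals. Rplp2 (chr7:141447591-141447670, plus strand), Rpl38 (chr11:114668520-114668599, plus), Rps21 (chr2:180257319-180257398, plus) and Rpl14 (chr9:120571457-120571536, plus) were the 4 such members with the highest ratio of control 2 to the other controls. Rps6 (chr4:86857348-86857427, minus strand), Rpl32l (chr10:20208379-20208458, plus), Rps15a (chr7:118116128-118116207, minus) and Rpl15 (chr14:18270967-18271046, minus) were the 4 with the lowest.
Rplp2: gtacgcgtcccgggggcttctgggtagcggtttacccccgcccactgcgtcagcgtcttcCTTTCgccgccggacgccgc
Rpl38: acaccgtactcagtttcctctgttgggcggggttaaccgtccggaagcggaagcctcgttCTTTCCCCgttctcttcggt
Rps21: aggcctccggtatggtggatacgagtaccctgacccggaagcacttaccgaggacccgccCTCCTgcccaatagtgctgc
Rpl14: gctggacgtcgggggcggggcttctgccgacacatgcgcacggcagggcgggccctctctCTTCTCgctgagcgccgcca
Rps6: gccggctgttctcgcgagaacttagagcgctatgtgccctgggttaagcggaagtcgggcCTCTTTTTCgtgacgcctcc
Rpl32l: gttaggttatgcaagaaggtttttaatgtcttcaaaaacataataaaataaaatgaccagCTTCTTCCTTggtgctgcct
Rps15a: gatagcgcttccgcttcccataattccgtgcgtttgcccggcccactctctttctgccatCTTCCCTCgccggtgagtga
Rpl15: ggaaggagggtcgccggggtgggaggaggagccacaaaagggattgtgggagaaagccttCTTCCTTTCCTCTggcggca

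The 8 members shown were picked for a run of C and T at the start. Its presence at both high and low levels in control 2 was therefore fixed by that choice. Rpl15, whose run of 13 letters is the longest of the 8 shown, had the lowest ratio of control 2 to controls 1 and 3 of the 8 (1.64), and Rplp2, with a run of 5, the highest (4.45). Over the 14 tested members with such a run the median ratio was 3.0, and over the 45 with an entry but no such run it was 2.92. Members on chromosome 18 (Rpl17 and Rps14) were left out of this comparison and of the choice of the 8 shown. A run of at least 8 C or T within 20 bases of the start was present in 42.5% of member entries and 16% of all entries. Over the 300 bases and both strands, the ETS core CCGGAAG was found in 35.6% of member entries against 8.86% of all, GGGCGG in 57.5% against 35.7%, and AAGATGGC, a YY1 core, in 9.59% against 2.75%. TATAAA was found in 9.59% of member entries and 13.6% of all entries. The printed windows of Rpl38 and Rps21 hold a CCGGAAG before the start. These are matches of letters in annotated windows, and annotated starts can differ from the starts used in this tissue.

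Counts on the ribosomal protein genes made up a near-constant share of every library but control 2. They were 1.01%, 2.75% and 1.0% of all counts for controls 1, 2 and 3 and, with WNT3 overexpression, 1.07%, 1.08% and 1.04%. The share in control 2 was thus far above that in each of the 5 other libraries, and the 3 overexpression libraries lay between controls 1 and 3 on the one side and control 2 on the other. Large subunit genes took 0.624%, 1.68% and 0.620% of control counts and, with overexpression, 0.660%, 0.666% and 0.646%. Counts on large subunit genes were 1.57 to 1.63 times those on small subunit genes in every library, control 2 having the lowest ratio. As a share of the summed TPM (transcripts per 1000000, scaled for transcript length), the genes took 3.08%, 6.2% and 3.08% of the control libraries and, with overexpression, 3.42%, 3.35% and 3.21%.

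**Figure D1:**
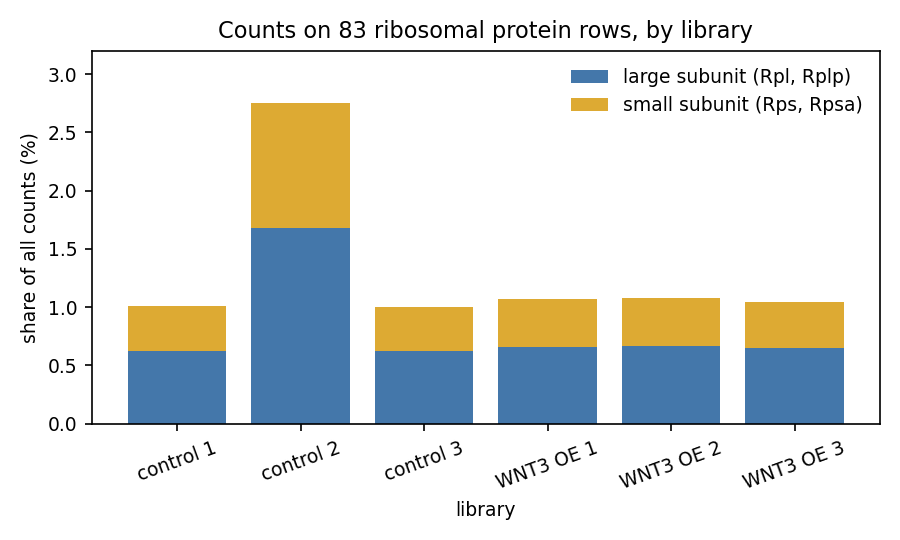
Share of all counts (%, y axis) on the 83 ribosomal protein rows in each library (x axis), split into large (blue) and small (yellow) subunit genes. Control 2 stands at 2.75% and the other 5 libraries lie between 1.0% and 1.08%.

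Control 2 was the highest of the 6 libraries for 81 of the 81 tested members, where it was the highest for 35.8% of all tested genes. Relative to the mean of controls 1 and 3, a reference chosen after seeing the data, its level was 2.93-fold in the median member, from 1.40-fold for Rpl3l to 4.45-fold for Rplp2. It was at least 2-fold for 75 members, against 14.2% of all tested genes, and at least 3-fold for 38. The share of all tested genes at 3-fold or more was not computed. The members at 4-fold or more were Rplp2 (4.45), Rpl36 (4.37), Rps12 (4.03), Rpl38 (4.03) and Rps29 (4.0), and those under 1.9-fold were Rpl3l (1.40), Rpl15 (1.64), Rpl22 (1.84) and Rps15a (1.88). The other 2 controls agreed closely: control 1 was within 10% of control 3 for 74 members. The 7 members outside that range were Rpl3l, Rpl13, Rpl32l, Rps4l, Rpl38 and Rpl36a, which were higher in control 1, and Rps29, which was higher in control 3. The coefficient of variation of the median member was 67.7% among the controls and 4.05% among the overexpression libraries.

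**Figure D2:**
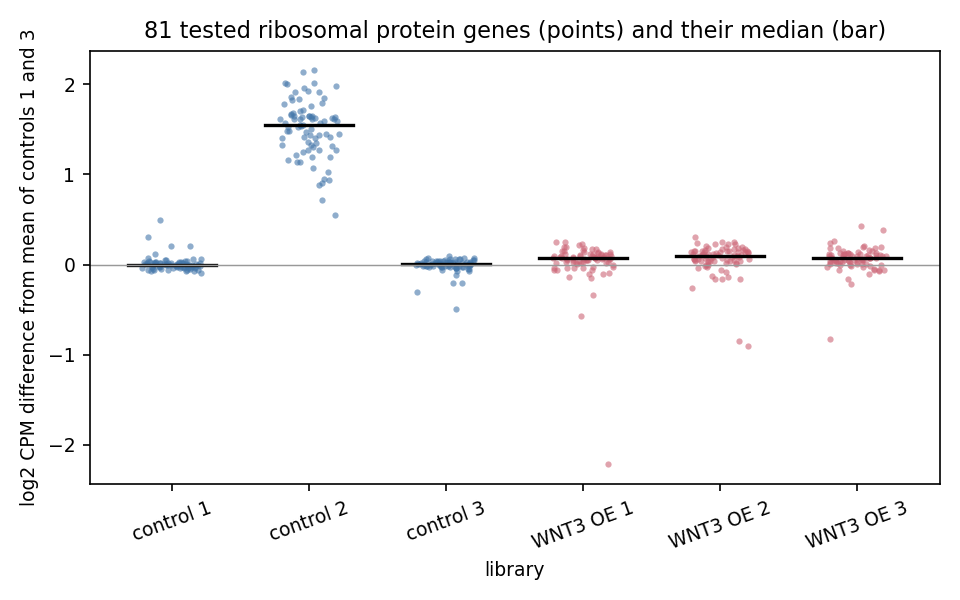
Log2 CPM difference of each of the 81 tested members from the mean of controls 1 and 3 (y axis) in each library (x axis), with controls in blue, WNT3 overexpression in red and the median as a bar. The median is 1.55 in control 2 and between 0.07 and 0.09 in the overexpression libraries, and the lowest point, at -2.21 in overexpression library 1, is the thinly counted Rpl3l.

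Against all 3 controls, every tested member had a fitted log2 fold change below 0, and no member passed the test. The median was -0.64, beside -0.01 over all 22360 tested genes, of which 49.3% lay above 0. The range ran from -1.23 for Rpl3l to -0.21 for Rpl22, with a median standard error of 0.41. In edgeR's quasi-likelihood fit, with p-values adjusted over all tested genes by the Benjamini-Hochberg method, 0 of 81 members had an adjusted p under 0.05 (0% of all tested genes), the lowest adjusted p being 0.822. An unadjusted p under 0.05 was reached by 2 members, Rpl32l and Rpl13, both lower, against 2.8% of all tested genes in that direction, and by 0 members in the other (1.86%). DESeq2 also called 0 members (lowest adjusted p 0.568, for Rpl13) and 0.248% of all genes given an adjusted p, with 7 members lower at an unadjusted p under 0.05 (2.46% of all genes), and limma voom called 0 with 1 member lower at an unadjusted p under 0.05 (2.43%). Groups did not overlap in 2 members, Rpl32l and Rpsa, whose overexpression libraries all lay below the lowest control (6.04% of all tested genes), and 0 members had them all above the highest control (5.89%). Leaving out control 1 gave 26 members lower at an unadjusted p under 0.05 (4.5% of all tested genes) and leaving out control 3 gave 23 (4.96%), with control 2 then 1 of 2 controls, and 0 members passed in either fit.

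Without control 2 the fitted changes lay on the other side of 0 for most members and were small. The median log2 fold change was 0.08, beside 0.02 over all genes tested in that fit, with 66 members above 0 (53.2% of all tested genes) and 15 below, and a median standard error of 0.09. For 63 members the change lay between 0 and 0.2. Again 0 of 81 members passed (0% of all tested genes), and 1 member, Rpl14, had an unadjusted p under 0.05, against 3.07% of all genes in that direction. DESeq2 without control 2 called 0 of the members (0.56% of all genes given an adjusted p), with 1 member higher at an unadjusted p under 0.05 (2.48%). The overexpression mean was within 10% of the mean of controls 1 and 3 for 66 members, and the median ratio was 1.06. All 3 overexpression libraries lay above both remaining controls in 41 members (11.2% of all tested genes) and below both in 2, Rpl32l and Rpsa (10.7%). A comparison of 3 against 2 libraries leaves little room to judge differences of this size.

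**Figure D3:**
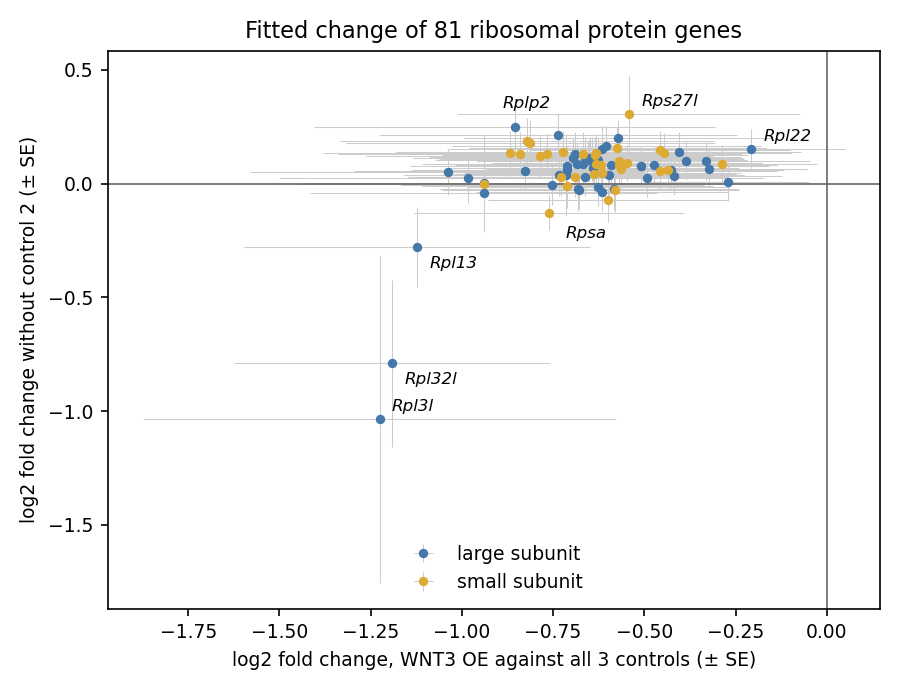
Log2 fold change of WNT3 overexpression against control for 81 members, with all libraries (x axis) and without control 2 (y axis), with bars of 1 standard error. All points lie left of 0 on the x axis, and 66 lie above 0 on the y axis, with Rpl3l, Rpl32l and Rpl13 lowest.

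The proteins of the stalk, the flexible arm of the large subunit that recruits the GTPases of translation, included the member with the highest ratio of control 2 to controls 1 and 3. Here and below, levels are given for replicates 1, 2 and 3 of each group in that order, and log2 fold changes with their standard error after the ± sign. Rplp2, an acidic stalk protein, stood at 36.3, 164 and 37.3 CPM (controls) and 40.7, 41.03 and 49.5 CPM (overexpression). Its partner Rplp1 stood at 144, 565 and 157 CPM (controls) and 139, 154 and 158 CPM (overexpression). In both genes control 2 was far above the other controls, and of this pair only Rplp2 had all overexpression libraries above controls 1 and 3. Rplp0, the protein that anchors the stalk, stood at 119.6, 271 and 127 CPM (controls) and 129, 127 and 129 CPM (overexpression). Rpl12, at the base of the stalk, stood at 143, 430.4 and 142 CPM (controls) and 136, 148 and 141 CPM (overexpression). The ratio of control 2 to controls 1 and 3 was 2.20 for Rplp0 and 3.02 for Rpl12, below those of Rplp1 (3.76) and Rplp2 (4.45). Log2 fold changes against all controls were -0.86 ± 0.55 for Rplp2 and -0.94 ± 0.49 for Rplp1, and without control 2 they were 0.25 ± 0.13 and 0.00 ± 0.10.

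Rpl5 and Rpl11 bind the smallest RNA of the large subunit and, when free of the ribosome, hold back Mdm2, the ligase that degrades p53. Rpl5 was measured at 191, 457 and 188 CPM (controls) and 199.7, 204 and 198 CPM (overexpression). Rpl11 was measured at 121, 333 and 129 CPM (controls) and 133, 128 and 124 CPM (overexpression). In both, control 2 was more than 2-fold above the other controls, and without it the log2 fold changes were 0.08 ± 0.08 and 0.04 ± 0.09, no larger than about their error.

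Proteins that line the tunnel of the nascent chain or surround its exit also shared the high level in control 2. Rpl4, whose loop narrows the tunnel, had 376, 797 and 382 CPM (controls) and 368, 415 and 381 CPM (overexpression). Rpl17, which forms the same constriction, had 205, 511 and 203 CPM (controls) and 215, 224 and 206 CPM (overexpression). Rpl39, a very small protein of the tunnel wall, had 46.9, 147 and 49.5 CPM (controls) and 50.2, 50.1 and 52.9 CPM (overexpression). In Rpl17 and Rpl39 all overexpression libraries were above controls 1 and 3, and in Rpl4 they overlapped. Rpl23a, the docking point of targeting factors at the exit, had 179.7, 447 and 183 CPM (controls) and 173, 171 and 184 CPM (overexpression). Rpl19 reached 155, 489 and 162 CPM (controls) and 163, 177 and 173 CPM (overexpression), and its groups did not overlap once control 2 was left out. Near the exit, Rpl26 was at 179, 550.2 and 173 CPM (controls) and 175, 187 and 189 CPM (overexpression). Rpl31 was at 139.8, 395 and 139 CPM (controls) and 143, 139 and 144 CPM (overexpression). The same was seen for Rpl35, at 102, 313 and 98.9 CPM (controls) and 109, 104 and 96.7 CPM (overexpression). Of the 8 proteins of this group, 7 had a log2 fold change above 0 without control 2 and Rpl23a had -0.04 ± 0.08, and 0 passed in either fit.

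On the small subunit, the proteins of the mRNA path included the most abundant members. Compared per length, Rps15, near the decoding site, had the highest mean TPM over the 5 libraries without control 2 (1067), followed by Rps14 (1056), which lines the exit of the mRNA. Counts gave Rps15 215, 643 and 224 CPM (controls) and 233, 226 and 239 CPM (overexpression). Rps14 stood at 249, 683 and 244 CPM (controls) and 266, 291 and 236 CPM (overexpression), with overexpression library 3 below every control and the other two above controls 1 and 3. Rps2 and Rps3 form the entry of the mRNA channel. For Rps2 the levels were 113, 282 and 122 CPM (controls) and 115, 107 and 123 CPM (overexpression). For Rps3 they were 192, 521 and 199 CPM (controls) and 205, 211 and 209 CPM (overexpression). Rps2 overlapped between the groups and Rps3 did not once control 2 was left out. Rps23, which monitors codon pairing in the decoding centre, was at 124, 389 and 126 CPM (controls) and 134, 142 and 136 CPM (overexpression). Rps26, at the exit side, which contacts mRNA just upstream of the start codon, was at 103, 229 and 94.8 CPM (controls) and 99.1, 88.1 and 94.3 CPM (overexpression). Its change without control 2 was -0.07 ± 0.10, against 0.14 ± 0.08 for Rps23. Rps28, also at the exit, was at 38.2, 148 and 36.6 CPM (controls) and 41.04, 41.6 and 44.2 CPM (overexpression), a ratio of control 2 to the other controls of 3.95.

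Several members are known for roles beyond the core of the ribosome, and among them Rpsa was 1 of the 15 members below 0 without control 2. Rpsa, which also serves as a laminin receptor precursor (chromosome 9, positions 120127766 to 120132369), was at 329, 854 and 316 CPM (controls) and 290.2, 288 and 306 CPM (overexpression). All 3 overexpression libraries were thus below all 3 controls, with log2 fold changes of -0.76 ± 0.37 with all libraries (unadjusted p = 0.073, adjusted p = 0.822 by edgeR) and -0.13 ± 0.08 without control 2 (unadjusted p = 0.15). Rpl32l, the other member of which this was true, was counted far lower. Rps6, whose phosphorylation by S6 kinases is a common readout of neuronal activity, was at 156, 346 and 154 CPM (controls) and 161, 164 and 160.5 CPM (overexpression). Rps27a, made as a fusion with ubiquitin, was at 127, 403 and 125 CPM (controls) and 127, 149 and 136 CPM (overexpression). The overexpression libraries differed among themselves more in Rps27a than in Rps6, and in both genes all were above controls 1 and 3. Rps19, the gene most often mutated in Diamond-Blackfan anaemia, was at 67.3, 273 and 73.3 CPM (controls) and 80.6, 75.04 and 75.2 CPM (overexpression). Rpl10, an X-linked gene needed for the subunits to join and linked to autism, was at 164, 357 and 159.7 CPM (controls) and 183, 171 and 167 CPM (overexpression). Rpl22, which T cells need but general translation does not, was at 84.6, 158 and 86.6 CPM (controls) and 94.8, 98.7 and 91.8 CPM (overexpression). Rpl22 had the smallest change against all controls of any member (-0.21 ± 0.26), a ratio of control 2 of only 1.84, and 0.15 ± 0.09 without control 2.

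The members with the smallest p against all controls also included Rpl13, Rpl41, Rpl36 and Rpl38. Rpl13, a large subunit protein (chromosome 8, positions 123102350 to 123105244), was at 115, 321 and 74.9 CPM (controls) and 73.6, 77.6 and 83.3 CPM (overexpression). Controls 1 and 3 differed in this gene by 1.54-fold, and overexpression libraries 2 and 3 lay above control 3. Its unadjusted p was 0.044 with all libraries (adjusted p = 0.822, edgeR) and 0.16 without control 2. Rpl41, which encodes the shortest ribosomal protein, was at 105, 397 and 116 CPM (controls) and 109, 98.7 and 115 CPM (overexpression). Rpl36, a large subunit protein, was at 41.98, 177 and 39.04 CPM (controls) and 41.2, 41.1 and 43.4 CPM (overexpression). Rpl38, known from a mouse mutant with altered translation of Hox mRNAs, was at 78.6, 294 and 67.3 CPM (controls) and 70.9, 72.9 and 78.6 CPM (overexpression). In Rpl41, Rpl36 and Rpl38 the overexpression libraries overlapped controls 1 and 3, with log2 fold changes of -0.04 ± 0.10, 0.05 ± 0.10 and 0.02 ± 0.11 without control 2, against -0.94 ± 0.48, -1.04 ± 0.54 and -0.98 ± 0.52 with it.

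The members with the smallest p without control 2 were Rpl14, Rpl37a, Rpl32l and Rplp2. Rpl14 was at 146, 452 and 144 CPM (controls) and 163, 169 and 166 CPM (overexpression). Its log2 fold change was -0.57 ± 0.42 with all libraries and 0.20 ± 0.08 without control 2 (unadjusted p = 0.041, adjusted p = 0.832, edgeR). Rpl37a was at 68.4, 271 and 74.7 CPM (controls) and 85.3, 83.4 and 79.97 CPM (overexpression), with 0.21 ± 0.09 without control 2. Both are proteins of the large subunit, and in both each overexpression library was above controls 1 and 3. Rpl9, one of the 4 members with the highest mean TPM, was at 249, 658 and 263 CPM (controls) and 258, 245 and 255 CPM (overexpression), with -0.02 ± 0.08 without control 2 and overlapping groups.

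The members at the ends of the range in control 2, chosen after their values were seen, came from both subunits. Rps12, of the head of the small subunit, was at 53.6, 228 and 59.5 CPM (controls) and 60.9, 66.99 and 65.04 CPM (overexpression). Rps29, a small zinc-binding protein of the same subunit, was at 78.5, 336 and 89.2 CPM (controls) and 88.96, 96.1 and 90.7 CPM (overexpression). In these genes control 2 was about 4-fold above the other controls. At the other end Rpl15, of the large subunit, was at 105, 176 and 109 CPM (controls) and 111, 106 and 107 CPM (overexpression). Rps15a, of the small subunit, was at 113, 216 and 117 CPM (controls) and 123, 127 and 116 CPM (overexpression). Rps20, also of the small subunit and longer than most members by the deposited tables, was at 62.2, 217 and 59.1 CPM (controls) and 64.6, 65.2 and 69.1 CPM (overexpression), a ratio of 3.58. Over all 81 tested members the middle 50% of ratios of control 2 to controls 1 and 3 ran from 2.5 to 3.17, and the middle 50% of ratios of the overexpression mean to controls 1 and 3 ran from 1.02 to 1.09. The median member was at 112, 319 and 116 CPM (controls) and 115, 111 and 115 CPM (overexpression), so apart from control 2 the libraries differed little in the median.

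Paralogues and copies were at lower levels than the genes they are named after. Compared per length over the 5 libraries without control 2, 74 members had a mean of over 100 TPM. Rpl3l had 0.60 TPM against 575 for Rpl3, Rpl32l had 2.71 against 427 for Rpl32, and Rpl6l had 13.3 against 415 for Rpl6. Rps4l had 18.3 TPM against 501 for Rps4x, and Rps27l had 28.2 against 772 for Rps27. Rpl3l, which replaces Rpl3 in heart and skeletal muscle, was at 0.77, 0.81 and 0.38 CPM (controls) and 0.09, 0.27 and 0.46 CPM (overexpression). These levels rest on 5 to 44 counts per library, and the groups overlapped. Rps27l, a paralogue of Rps27 that p53 induces, was at 5.49, 18.9 and 5.64 CPM (controls) and 6.49, 6.89 and 7.24 CPM (overexpression), with 0.31 ± 0.17 without control 2, the highest of all members. Rpl32l (chromosome 10, positions 20208439 to 20209030), named after Rpl32, was at 1.03, 1.76 and 0.77 CPM (controls) and 0.59, 0.48 and 0.49 CPM (overexpression). It had the smallest p of all members (0.025, adjusted p = 0.822, edgeR), a log2 fold change of -1.19 ± 0.43, and -0.79 ± 0.37 without control 2, on 30 to 96 counts per library. Rps4l was at 8.05, 26.4 and 6.05 CPM (controls) and 8.31, 6.33 and 6.48 CPM (overexpression). Rpl6l was at 5.14, 15.4 and 5.004 CPM (controls) and 5.62, 5.12 and 4.85 CPM (overexpression). In both copies control 2 was the highest library and the rest overlapped. Reads of such near copies can be assigned to the wrong gene, so the levels of Rpl32l, Rpl6l and Rps4l are uncertain.

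The testis paralogues Rpl10l and Rpl39l were at or near 0. Rpl10l was counted 0 times in each library, which allows up to 0.0420 to 0.0704 CPM per library by counting error alone (3 counts). Rpl39l was counted 6 times in control 2 and 0 times elsewhere. Of 6 testis markers, Tnp1 was at 0 in every library, Prm1, Prm2 and Tnp2 were at or below 0.098 CPM, and the list summed to 9.63 to 10.3 CPM in the controls and 8.10 to 10.3 CPM in overexpression. The 6 heart and muscle markers summed to 25.4, 44.7 and 29.2 CPM in controls 1 to 3 and 20 to 27 CPM in overexpression. Their part in the level of Rpl3l was not tested.

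Transcripts of the members are short, and control 2 departed from the other libraries along transcript length over all genes. Relative transcript length was taken from the deposited tables (count over TPM, with the median tested gene at 1). The median member had a relative length of 0.25, from 0.11 for Rpl38 to 1.77 for Rps15a, and 79 of 81 were shorter than the median tested gene. When all tested genes were divided into 10 equal bins by length, 52 members fell in the bin of the shortest transcripts and 19 in the next. In control 2 the median log2 difference from controls 1 and 3 was 1.02 in the shortest bin and -0.75 in the longest, while in each overexpression library it lay between -0.07 and 0.06 in every bin. The members as a group were above this line, at 1.55. Among the 81 members, the difference in control 2 had a Pearson correlation of -0.56 and a Spearman correlation of -0.57 with log2 relative length, given as a description since all values share the same libraries. With log2 mean TPM over the other 5 libraries they were 0.27 and 0.02.

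**Figure D4:**
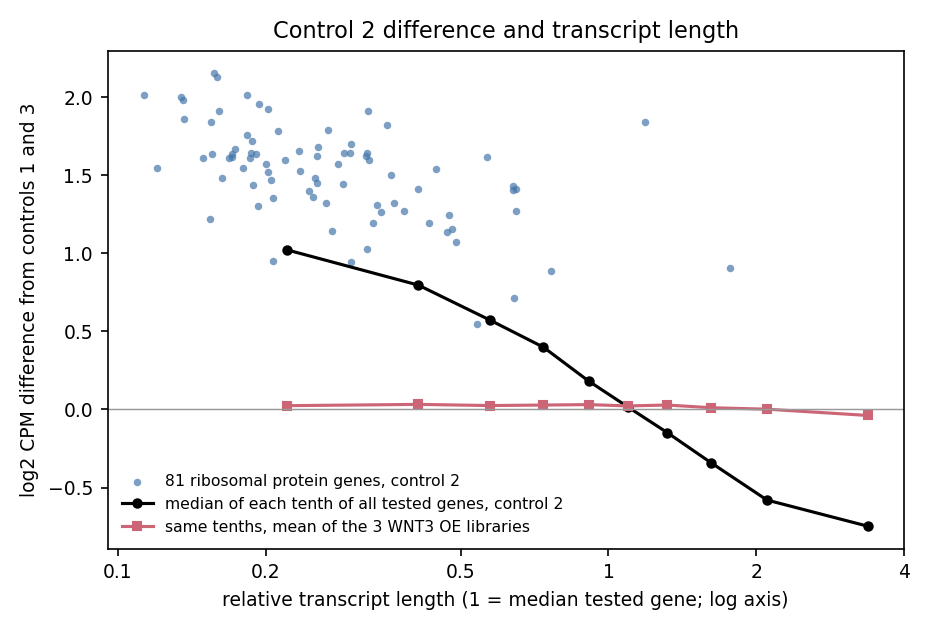
Log2 CPM difference of control 2 from controls 1 and 3 (y axis) against relative transcript length (x axis, log scale) for 81 members (blue points) and for the median of each of 10 length bins of all tested genes (black line), with the mean of the overexpression libraries over the same bins in red. The black line falls from 1.02 to -0.75, and most members lie above it.

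With a smooth trend on transcript length removed from each library, part of the difference in control 2 remained. The median difference of the members in control 2 from controls 1 and 3 became 0.48 (77 of 81 above 0), and the shortest bin of all genes stood at -0.03. Against all controls the median log2 fold change became -0.14, with 76 members below 0 and 5 above (50.5% of all tested genes were above), 0 members passed, and 1 was lower at an unadjusted p under 0.05 (3.81% of all tested genes). The median difference in the overexpression libraries became 0.06, 0.09 and 0.01. Rps20 and Rps15a, the 2 members longer than the median gene by this measure, had the largest differences in control 2 after the trend was removed (1.89 and 1.32), against 1.84 and 0.91 before, when Rplp2 had the largest (2.15). The values of Rps20 and Rps15a after removal rest on this length measure, at 1.19 and 1.77 against 0.25 for the median member. Rpl32l (-0.20) had the lowest after removal. Other gene lists, described below, also differed in control 2 after the same removal. Their medians were 0.42 for nuclear respiratory chain genes, 0.39 for further cytosolic ribosomal genes and 0.34 for mitochondrial ribosomal proteins. Hosts of small nucleolar RNAs had 0.24, ribosome biogenesis genes 0.11, and initiation and mTOR genes 0.10. Translation factors and other genes with a TOP tract had 0.11, and mitochondrially encoded genes -0.71.

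Other genes of translation and of the mitochondria were compared in the same way. Most lists were drawn up by function, and those of mitochondrial ribosomal proteins and of the nuclear respiratory chain by gene names. Of 8 further cytosolic ribosomal genes outside the naming rule (among them Fau, Rack1 and Rps3a1), 8 were highest in control 2, with a median log2 difference of 1.37. Rpl22l1, a paralogue of Rpl22, was at 49.1, 134 and 51.5 CPM (controls) and 45.9, 48.03 and 49.02 CPM (overexpression), whereas Rpl36al, a paralogue of Rpl36a, was at 32.6, 95.2 and 29.6 CPM (controls) and 29.8, 30.8 and 29.4 CPM (overexpression). Each overexpression library was below every control for Rpl22l1, by little where control 1 is concerned, and for Rpl36al the libraries overlapped. Nuclear genes of the respiratory chain, about as short as the members (median relative length 0.24 over 79 genes), had a median log2 difference of 1.5 in control 2, with 77 of 79 highest there. In this list the smallest p belonged to Cox8a, a subunit of cytochrome oxidase (-1.07 ± 0.40), and Atp5d, a subunit of ATP synthase (-1.09 ± 0.44), and no gene passed. Mitochondrial ribosomal proteins had 1.06 over 78 genes, with 76 highest in control 2. Mrpl34 was at 8.001, 12.97 and 5.38 CPM (controls) and 3.62, 3.89 and 3.89 CPM (overexpression), a log2 fold change of -1.21 ± 0.34 and of -0.81 ± 0.22 without control 2, and Mrpl54 had -1.37 ± 0.54. Mrpl34 was thus lower in overexpression with and without control 2, with an adjusted p of 0.822 by edgeR. Hosts of small nucleolar RNAs, several of which also begin with a TOP tract, had a median difference of 1.41 over 9 genes, led by p by Epb41l4aos (-0.99 ± 0.50) and Snhg6 (-0.94 ± 0.52).

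Lists of longer genes had smaller median differences in control 2. Translation factors and other genes whose mRNAs carry a TOP tract (20 genes, median relative length 0.63) had a median log2 difference of 0.58 in control 2. Of these, 15 were highest there. Tpt1, which encodes the tumour protein known as TCTP, was at 242, 566 and 246 CPM (controls) and 223, 224 and 253 CPM (overexpression), and Eef1b2, an elongation factor subunit, at 74.5, 214 and 76.5 CPM (controls) and 77.8, 74.1 and 79.1 CPM (overexpression). In both genes the overexpression libraries lay near controls 1 and 3. Ribosome biogenesis genes (30 genes, 0.99) had 0.36, with Nhp2, a snoRNA-binding protein, at -0.77 ± 0.36 and Polr1a, the largest subunit of RNA polymerase I, at 0.41 ± 0.19. Initiation factors and mTOR pathway genes (22 genes, 1.61) had -0.23, and their smallest p belonged to the short-mRNA factors Eif5a (-0.54 ± 0.31) and Eif1 (-0.50 ± 0.30). The 13 mitochondrially encoded genes, short but of another compartment (0.27), had only 0.08 in control 2, and took -0.30, -0.13 and -0.07 in overexpression libraries 1 to 3. COX3 of that list had -0.52 ± 0.24 and ND3 had -0.72 ± 0.31. In all of these lists 0 genes passed. Without control 2 the median log2 fold changes were 0.06 for the 8 further ribosomal genes, 0.00 for the respiratory chain and -0.02 for mitochondrial ribosomal proteins. They were 0.03 for the 20 TOP genes, 0.02 for ribosome biogenesis and -0.02 for initiation and mTOR genes, beside 0.08 for the members. They were farther from 0 than the members' for the snoRNA hosts (0.11) and for the mitochondrially encoded genes (-0.14, with 13 of 13 below 0).

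**Figure D5:**
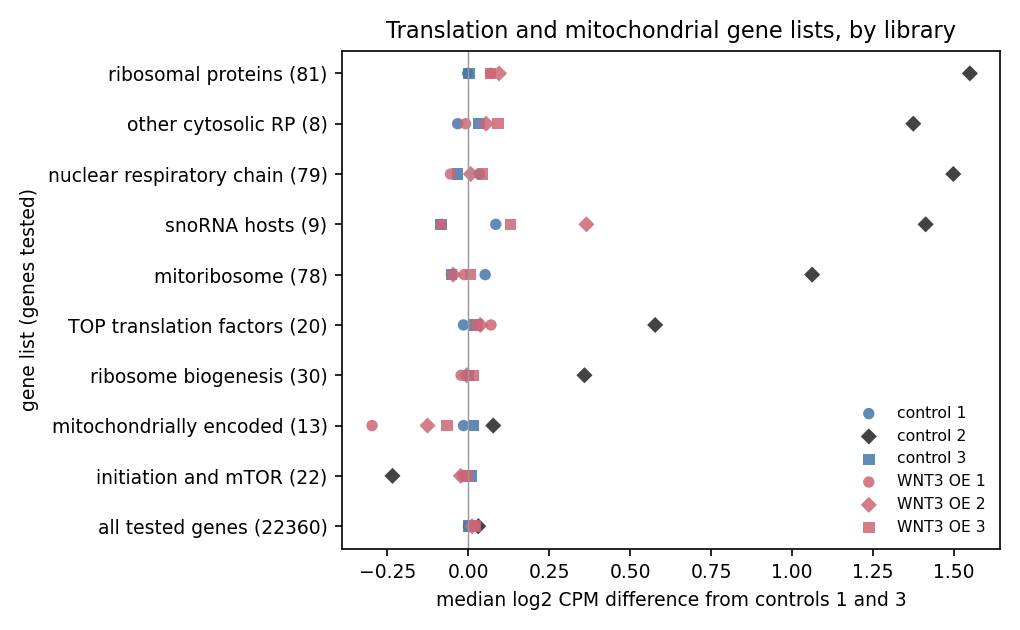
Median log2 CPM difference from controls 1 and 3 (x axis) of each gene list (y axis, genes tested in parentheses) in each library, control 2 as black diamonds. Control 2 runs from 1.55 for the ribosomal proteins to -0.23 for initiation and mTOR genes, while the other libraries lie close to 0 for most lists.

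Across the 6 libraries, with control 2 highest for all 81 tested members, the members followed each other closely, and without control 2 less so. The correlation of a member's log2 CPM with the median profile of the family was over 0.9 for 79 of 81 members, with a median of 0.997. The share of all tested genes over 0.9 was not computed. Over the 5 libraries without control 2 the members' correlation was over 0.9 for 11, with a median of 0.73. The lowest there was -0.93, for Rpl32l. The 5 genes outside the family with the most similar profile over 6 libraries, out of 9789 with at least 10 CPM, were Prmt1 (r = 0.9996), Ciao2a (0.9994), Phb2 (0.9992), Atxn10 (0.9992) and Rps3a1 (0.9990). Prmt1, an arginine methyltransferase, was at 39.05, 71.1 and 39.3 CPM (controls) and 39.9, 39.9 and 39.8 CPM (overexpression). Rps3a1, the ribosomal gene that the naming rule misses, was at 277, 682 and 280.1 CPM (controls) and 291, 301 and 282 CPM (overexpression). Over the 5 libraries without control 2 their correlations were 0.954 for Prmt1, 0.946 for Ciao2a, 0.867 for Phb2, 0.764 for Atxn10 and 0.855 for Rps3a1, a description over few libraries that all genes share.

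Summed markers of several cell types also differed between control 2 and the other controls. The 8 oligodendrocyte markers summed to 4620, 6930 and 5113 CPM in controls 1 to 3 and 3143 to 6433 CPM in overexpression, with 7 highest in control 2. The 8 microglia markers summed to 339, 552 and 391 CPM in the controls and 294 to 471 CPM in overexpression, with 6 highest in control 2. The 8 astrocyte markers summed to 6561, 4006 and 7294 CPM in the controls and 5757 to 6357 CPM in overexpression, with 3 highest in control 2. The 5 erythroid genes summed to 119, 722 and 247 CPM in the controls and 184 to 475 CPM in overexpression, with 4 highest in control 2. For the oligodendrocyte, microglia, astrocyte and erythroid lists, the median log2 difference of control 2 from controls 1 and 3 was 0.57, 0.63, -0.07 and 2.08. Their median relative transcript lengths were 0.85, 0.70, 1.07 and 0.22 in that order. In overexpression the 10 leukocyte markers summed to 23.2 to 69.1 CPM against 12 to 16.4 CPM in the controls, and the 8 endothelial markers to 288 to 488 CPM against 203 to 216 CPM. No marker of these lists was at 0 in all libraries. The part of these cell types in the levels of the ribosomal protein genes was not tested, and in bulk tissue fewer cells of a type and less RNA per cell cannot be told apart.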

How the data were processed

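RNA was extracted with Trizol and made into strand-specific TruSeq libraries, per the labels' protocols. Per the submitters' processing notes, which assign no roles, the tools were STAR 2.5.3a, FastQC 0.11.5, DESeq 1.16.1 and Cuffnorm, with build mm10. Counts were used as deposited, as whole numbers for each gene, and the authors' TPM for the same genes came from a second deposited table. The program that counted reads is not given in the sources used here, nor are its annotation and strand setting. With the strand setting unknown, overlapping antisense genes may share reads, and the many retrocopies of ribosomal protein genes may take or give reads: 321 rows named as their pseudogenes held 0.031% to 0.079% of counts.

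Columns were matched to samples by library name. Genes were filtered with filterByExpr (minimum count 10), which left 22360, and tested with the edgeR 4.0.16 quasi-likelihood test (R 4.3.3, TMM, group as the only term, Benjamini-Hochberg over all genes at 0.05). Standard errors are the size of the log2 fold change over the square root of F. Library differences are of log2 CPM with a prior count of 2. DESeq2 1.42.0, limma 3.58.1 (voom on counts, or its trend method on log2(TPM + 1) and log2(TPM + 0.1)), other scalings and filters, a lowess length trend (span 0.3), the replicate block and omission of each library were alternatives. The code was tested on simulated data, which bears on the code alone and not on these libraries. Members and lists were chosen with earlier results of these data known. Named genes were the 8 members with the smallest p, the 4 without control 2, the 4 highest and the 4 lowest by TPM, fixed role groups and 2 genes per other list, some of which are not reported here. The file names mitochondrial genes without their usual prefix, so that list was matched under those names. Sequences and coordinates are from RefSeq GRCm38.p6, an mm10 assembly.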

Additional observations from a re-analysis of the deposited data

How the results depend on the processing

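No member passed under any alternative run, so a change of sign in single members was not counted as a reversal. The median log2 fold change of the members was -0.64 and stayed below 0 in each alternative that kept control 2. It was -0.64 with DESeq2 size factors, -0.65 with upper quartile factors, -0.60 with library totals, -0.65 with TMM computed without the family, -0.63 with DESeq2 and -0.44 with limma voom. On log2(TPM + 1) it was -0.22 with 79 of 81 members below 0, where the median of all genes shifted to 0.18. With the length trend removed it was -0.14. With single libraries left out it ran from -0.90 (without control 3 or control 1) to 0.083 (without control 2). The number of members with an unadjusted p under 0.05 was 26 without control 1 and 23 without control 3, all lower, against 2 with all libraries, and 0 members passed there. Without control 2 the median was 0.081 with DESeq2, 0.10 with library totals and 0.084 with TMM without the family. It was 0.071 with the length trend removed and 0.13 on log2(TPM + 1), beside 0.05 over all genes in the latter. These alternatives were chosen after seeing the data. On log2(TPM + 1) without control 2, 75 members were above 0 and 6 below. By limma's trend method 9 were higher and 1 lower there at an unadjusted p under 0.05, and 0 passed. The share of all genes at that p was not computed for this run. The share of counts was lower in overexpression by 0.52 percentage points with all libraries (-0.52) and higher by 0.06 without control 2, the range without single libraries being -0.81 to 0.06, and was -0.79 on TPM. Replicate numbers are shared between the groups, and the labels do not say whether a number pairs the samples. Same-numbered libraries had correlations of 0.06, -0.02 and -0.01 and did not each correlate best with their own number. Values this near 0, with control 2 standing apart, cannot decide whether the samples were paired. With the replicate number as a block the median was -0.43, with the block and the length trend removed -0.11, and 0 members passed in both. Depth limits Rpl3l and Rpl32l most, with under 100 counts in every library.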
